A study of Rattus norvegicus with 8 samples.

Results

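Heat shock chaperones were examined in whole blood of rats fed a high-fat or a normal diet. The list held 8 genes, Hsph1, Dnajb1, Dnaja1, Hspa8, Hsp90aa1, Hsp90ab1, Hspd1 and Hspe1, and its members were all probe sets whose platform annotation gave exactly 1 gene symbol equal to a listed gene. This rule found 10 of 31042 probe sets, for 6 of the 8 genes. Hsph1, Dnajb1, Dnaja1 and Hsp90ab1 had 2 probe sets each, called 1 and 2 in the order of the table, and Hspd1 and Hspe1 had 1 each. Hspa8 and Hsp90aa1 were represented only by probe sets annotated with a further symbol, 1 probe set for Hspa8 and 2 for Hsp90aa1, so no value of either gene is given. The list was named for the cytosol, but Hspd1 and Hspe1 encode the chaperonin of the mitochondrial matrix, so the name covers only the other genes.

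The tested animals were 4 male Wistar rats that had eaten a high-fat feed (Quick fat) over 8 weeks, and they were set against 4 that had eaten a normal feed (CE-2) for as long. All had been bought at 7 weeks of age and were bled on day 56 after an overnight fast. Each diet was given to 10 rats, the labels do not say how the animals for the arrays were picked, and a group fed the high-fat feed with 1% mulberry leaf powder is not analysed here. The labels call the arrays of a diet biological replicates, numbered 1 to 4, and each was treated as 1 animal. The brightest 25% of probe sets held 9 of 11 measured erythroid markers, 7 of 8 platelet, 9 of 11 T cell, 7 of 7 B cell, 3 of 9 neutrophil, 5 of 9 monocyte and 5 of 11 natural killer cell markers, and 0 of 10 liver markers. By mean level, Hbb of red cells lay at the 99.99th percentile and Cd3e of T cells at the 98.6th. Neutrophil markers ran from Mmp8 at the 40.8th to S100a9 at the 99.5th percentile. Monocyte markers ran from Cd163 at the 14.4th to Lyz2 at the 99.8th.

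Deposited values ranged from 5.19 to 15.25 in each array, as log2 intensities do, but differed little between arrays. Across the 8 arrays a typical probe set had an SD of 0.0607 ten-thousandths (1e-04) of a log2 unit (the median). Such differences cannot be read as log2 ratios of RNA amount, so no fold change is given. Values of single animals are therefore stated as deviations from the mean of the 8 arrays for that probe set, in ten-thousandths of a deposited log2 unit. Differences between diets are high-fat minus normal, in the same unit, or in within-group SDs, meaning multiples of the pooled SD of the 4 animals per diet. Those units compare animals within a probe set and give no order of response between genes.

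Heat shock chaperones hold unfolded or newly made proteins until they can fold, and return aggregated protein to solution. In the cytosol, HSP70 proteins such as Hspa8 bind exposed stretches of protein. J-proteins such as Dnaja1 and Dnajb1 deliver clients to HSP70 and drive its ATP cycle, and HSP110 proteins such as Hsph1 exchange its nucleotide. Proteins of the HSP90 family, Hsp90aa1 and Hsp90ab1, take over later folding steps of kinases and receptors, helped by cochaperones. Hspd1 forms the folding barrel of mitochondria and Hspe1 its lid. Many of these genes are transcribed by heat shock factor 1, which binds repeats of the unit GAA on alternating strands, called heat shock elements.

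Promoter sequences are shown as a description, because many of the listed genes are known for heat shock elements. The part of these elements in the measured levels was not tested. They are RefSeq windows of the GRCr8 assembly, from 250 bases before to 50 bases after the transcript start, and were found for all 6 measured genes. Capitals mark 2 alternating units at the spacing of a heat shock element, GAANNTTC or TTCNNGAA, each of which is its own reverse complement. Where such matches share a unit they run together in a longer stretch of capitals, and 3 alternating units are then present. A match of 2 units was present in 5 of the 6 windows and in 15.9% of all 33469 promoter windows, and 3 alternating units in 4 of the 6 and in 0.798% of all. The Hsph1 window, chr12:10427118-10427417 on the plus strand, held 3 alternating units from base -36 to -24, counted from the start, and a lone match of 2 units from -105 to -98. The Dnajb1 window lies at chr19:41431092-41431391 on the minus strand and held 2 separate matches of 2 units, at -11 to -4 and at 18 to 25. The Dnaja1 window, chr5:60638154-60638453 on the plus strand, held 3 alternating units just past the start, at bases 10 to 22, and a lone match of 2 units from -181 to -174. The Hspe1 window, chr9:64084077-64084376 on the plus strand, held a run of matches from base -65 to -48.
Hsph1: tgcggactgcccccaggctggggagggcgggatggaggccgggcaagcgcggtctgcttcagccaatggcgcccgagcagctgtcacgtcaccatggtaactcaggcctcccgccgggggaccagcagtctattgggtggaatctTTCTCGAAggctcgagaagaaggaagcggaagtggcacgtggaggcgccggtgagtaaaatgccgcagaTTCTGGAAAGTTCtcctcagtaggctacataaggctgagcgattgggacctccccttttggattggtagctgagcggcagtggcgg
Dnajb1: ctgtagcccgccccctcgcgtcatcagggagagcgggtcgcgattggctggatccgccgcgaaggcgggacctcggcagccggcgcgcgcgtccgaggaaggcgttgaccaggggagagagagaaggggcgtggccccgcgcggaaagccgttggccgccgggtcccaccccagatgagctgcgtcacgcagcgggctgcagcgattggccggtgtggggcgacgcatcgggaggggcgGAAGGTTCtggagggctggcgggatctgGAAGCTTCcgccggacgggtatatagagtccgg
Dnaja1: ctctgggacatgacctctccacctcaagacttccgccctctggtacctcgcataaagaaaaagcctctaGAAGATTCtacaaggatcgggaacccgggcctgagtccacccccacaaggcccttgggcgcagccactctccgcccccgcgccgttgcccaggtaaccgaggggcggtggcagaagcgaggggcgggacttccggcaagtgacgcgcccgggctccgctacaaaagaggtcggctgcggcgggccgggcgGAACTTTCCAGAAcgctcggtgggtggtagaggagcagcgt
Hspe1: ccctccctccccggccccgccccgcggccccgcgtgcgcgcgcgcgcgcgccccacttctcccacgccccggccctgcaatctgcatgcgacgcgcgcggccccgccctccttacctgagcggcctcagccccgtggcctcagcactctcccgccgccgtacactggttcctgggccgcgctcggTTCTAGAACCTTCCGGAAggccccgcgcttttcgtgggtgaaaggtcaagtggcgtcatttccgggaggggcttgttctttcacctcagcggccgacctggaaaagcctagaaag
Hspd1 is transcribed away from Hspe1 on the minus strand, and its window, chr9:64083988-64084287, shares 211 bases with that of Hspe1, the run of capitals included. That run is therefore counted for both genes in the 5 of 6 and 4 of 6 windows above. No match was found in the window of Hsp90ab1, chr9:22930173-22930472 on the plus strand, which says only that these letters are not in it. CCAAT or its reverse complement ATTGG was in 3 of the 6 windows and in 37.5% of all. TATAAA or its reverse complement TTTATA was in 0 of the 6 and in 14.2% of all.

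Measured members lay high on the array. Their mean levels were 6.82 and 7.41 for the probe sets of Hsph1, 7.49 and 7.89 for Dnajb1, 8.15 and 8.77 for Dnaja1, 8.15 and 9.76 for Hsp90ab1, 9.39 for Hspd1 and 8.72 for Hspe1. All but the dimmer probe set of Hsph1, at the 62.1st percentile, were among the brightest 25% (9 of 10). Levels of different probe sets depend on the affinity of their probes and do not rank the amounts of RNA. All 10 members varied more between animals than the median probe set, with SDs from 0.158 for Hspd1 to 5.36 for probe set 2 of Hsph1, the 77.5th and the 99.2nd percentile of all SDs.

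Hsph1, the HSP110 nucleotide exchange factor, stood higher in each high-fat animal than in any normal animal on both probe sets. Probe set 2, the brighter, deviated by -1.12, -0.332, 9.66 and 6.61 ten-thousandths in high-fat replicates 1 to 4, against -3.76, -4.89, -4.79 and -1.37 in normal replicates 1 to 4. High-fat replicates 3 and 4 stood far above the rest, and the groups did not overlap, although high-fat replicate 1 and normal replicate 4 lay close together. The difference was 7.40 ± 2.60 (SE, n = 4 and 4), which is 1.90 within-group SDs. Its limma adjusted p was 1, with an unadjusted exact permutation p of 0.0286, the smallest that 4 against 4 animals can give. Probe set 1 deviated by -0.462, -0.468, 2.50 and 2.63 in the high-fat animals, against -1.62, -1.39, -0.689 and -0.491 in the normal animals. It showed the same 2 animals on top, and its groups were separated only by the narrow gap between high-fat replicate 2 and normal replicate 4. The difference was 2.10 ± 0.861, or 1.62 within-group SDs (limma adjusted p = 1).

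Dnajb1, the J-protein whose induction by heat is a textbook mark of heat shock factor 1, had the same 2 animals on top. Probe set 2 deviated by -0.0977, -0.0676, 0.827 and 0.362 ten-thousandths in the high-fat animals, against -0.341, -0.138, -0.228 and -0.318 in the normal animals. The groups did not overlap, but high-fat replicates 1 and 2 lay next to the normal animals. This difference was 0.512 ± 0.209 (SE, n = 4 and 4), which is 1.63 within-group SDs (limma adjusted p = 1). Probe set 1 deviated by -0.428, -0.0951, 0.623 and 0.254 in the high-fat animals, against -0.0969, 0.0712, -0.189 and -0.139 in the normal animals. Here the groups overlapped, with high-fat replicate 1 lowest of all, and the difference was 0.177 ± 0.219, or 0.537 within-group SDs (limma adjusted p = 1). Without high-fat replicate 3 it was -0.00117.

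Dnaja1, a J-protein that works with Hspa8 in the cytosol, overlapped between the diets on both probe sets. Its brighter probe set 2 deviated by -1.09, -0.444, 2.12 and 1.36 ten-thousandths in the high-fat animals, against -0.793, -0.168, -0.994 and 0.0117 in the normal animals. High-fat replicates 3 and 4 were again the highest, and high-fat replicate 1 was the lowest. The difference was 0.972 ± 0.742 (SE, n = 4 and 4), or 0.871 within-group SDs. On probe set 1 the deviations were -0.240, 0.0617, 0.712 and 0.310 in the high-fat animals, against -0.210, -0.0191, -0.435 and -0.180 in the normal animals. Only high-fat replicate 1 fell among the normal animals there, and the difference was 0.422 ± 0.206, or 1.36 within-group SDs. The limma adjusted p was 1 for both.

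Hsp90ab1, the constitutive cytosolic HSP90, gave a different picture on each probe set. Probe set 2, the brighter, deviated by 0.115, -0.706, 0.625 and 3.50 ten-thousandths in the high-fat animals, against -1.40, -0.142, -4.42 and 2.43 in the normal animals. Replicate 4 of each diet was high and normal replicate 3 was low, so the groups overlapped, and the difference was 1.76 ± 1.59 (SE, n = 4 and 4), or 0.738 within-group SDs. Probe set 1 deviated by -2.67, 2.64, -1.89 and 6.25 in the high-fat animals, against -1.27, -5.63, 2.64 and -0.0579 in the normal animals. High-fat replicate 4 was again the highest, but normal replicate 3, lowest on probe set 2, was among the 3 highest here. The difference on probe set 1 was 2.16 ± 2.54, which is 0.566 within-group SDs. Both had a limma adjusted p of 1.

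The mitochondrial pair overlapped between the diets. Hspd1, the chaperonin subunit, deviated by -0.241, 0.0693, 0.157 and 0.172 ten-thousandths in the high-fat animals, against -0.0880, 0.0389, -0.201 and 0.0922 in the normal animals. Hspe1, its cofactor, deviated by -0.295, 0.0395, 0.179 and 0.266 in the high-fat animals, against -0.197, 0.402, -0.894 and 0.50 in the normal animals. The highest animals were high-fat replicate 4 for Hspd1 and normal replicate 4 for Hspe1. The differences were 0.0789 ± 0.110 for Hspd1 and 0.0946 ± 0.324 for Hspe1 (SE, n = 4 and 4), which is 0.480 and 0.194 within-group SDs (limma adjusted p = 1 for each). Without normal replicate 3, the lowest animal for Hspe1, that difference was -0.188.

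**Figure D1:**
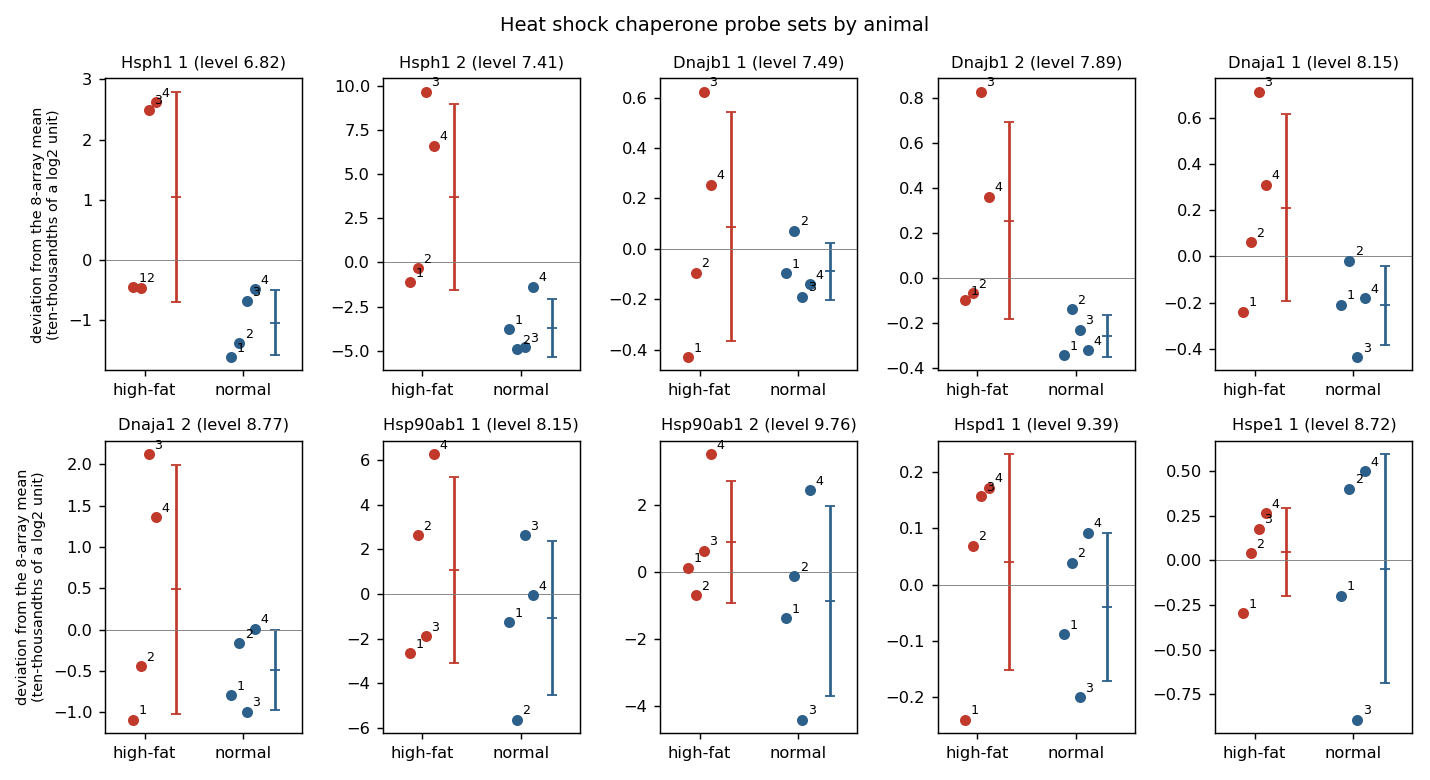
Deviation of each animal from the 8-array mean for each of the 10 probe sets, in ten-thousandths of a deposited log2 unit, with the mean level over the arrays in each title. Points are animals marked with their replicate number, crosses with bars are mean and SD of 4 animals, and high-fat replicates 3 and 4 are the 2 highest points for Hsph1, Dnajb1, Dnaja1 and Hspd1.

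Read as a list, the chaperones leaned one way without any member passing the test. The high-fat mean lay above the normal mean in 10 of 10 member probe sets and in 46.6% of all probe sets, but in 5 of 10 and 1.63% when each array was centred on its median, and in 5 of 10 and 22.3% (3 lower, 2 equal) with quantile normalization on top. Centring subtracts 1.37 ten-thousandths from high-fat replicate 4, more than the SD of 6 of the members. Their median difference was 0.804 within-group SDs, from 0.194 to 1.90, against -0.0479 for all probe sets. With limma, 0 of the 10 passed an adjusted p of 0.05 and 0% of all 31042 probe sets did. Without adjustment 3 of the 10 had a p under 0.05 by limma, and 2.25% of all probe sets did. By the exact permutation test 3 of the 10 and 1.44% of all did, and 0 were called after adjustment. The limma count was 0 without high-fat replicate 4 and also without normal replicate 1, 2 or 3, and 1 to 4 without any other animal. All 4 high-fat animals stood above all 4 normal animals in 3 of the 10, both probe sets of Hsph1 and probe set 2 of Dnajb1, and in 0.586% of all probe sets. These members were listed with earlier results of the same arrays known, so the counts are descriptions. In whole blood, a change in RNA per cell and a change in the share of the cells that hold it cannot be told apart.

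The spread within the high-fat group was wide for the cytosolic HSP70 partners. The SD of the 4 high-fat animals was 3.22 and 3.22 times that of the 4 normal animals for the probe sets of Hsph1, 4.004 and 4.68 times for Dnajb1 and 2.35 and 3.11 times for Dnaja1. Over all probe sets the median ratio was 0.939, and 11.6% had a ratio over 2, which 6 of the 10 members had. The other members did not share this. The ratio was 1.21 and 0.642 for Hsp90ab1, 1.46 for Hspd1 and 0.384 for Hspe1. Over the 10 probe sets, high-fat replicate 4 was among the 2 highest animals in 9 and high-fat replicate 3 in 7, while high-fat replicate 1 was among the 2 lowest in 6 and normal replicate 3 in 7. Over all probe sets high-fat replicates 3 and 4 were among the 2 highest in 28.4% and 22.4%. Normal replicate 3 was so in 35.0%, the largest share of any animal, and high-fat replicate 1 in 20.0%. For the 2 lowest animals no share over all probe sets is given, so those counts have no background.

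Probe sets of the same gene recorded the same differences between animals in 3 of the 4 genes with 2 of them. Across the 8 animals Pearson's r was 0.959 for Hsph1, 0.857 for Dnajb1 and 0.936 for Dnaja1, but 0.148 for Hsp90ab1. Spearman's rho was 0.881, 0.619, 0.881 and 0.0952 in that order. Of 9597 pairs of probe sets with the same symbol on the whole array, 24.96% had an r over 0.5, and their median r was 0.179. Among the 1880 pairs in which both probe sets were at least as bright as the dimmest of these members, the share was 41.6% and the median 0.374. The exact permutation p of r, with the value adjusted over the 19 pairs compared in all, was 0.0033 (adjusted 0.0269) for Hsph1, 0.0114 (0.0288) for Dnajb1, 0.0017 (0.0269) for Dnaja1 and 0.738 (0.738) for Hsp90ab1. For rho these were 0.0072 (0.0459), 0.115 (0.199), 0.0072 (0.0459) and 0.840 (0.840). When the 2 animals farthest from the median were left out, high-fat replicates 3 and 4 in the first 3 genes, r was 0.706 for Hsph1 and 0.613 for Dnaja1, but -0.161 for Dnajb1, whose agreement rests on those animals. For Hsp90ab1 the value turned on single animals, at -0.421 when high-fat replicate 4 was left out and 0.561 when normal replicate 3 was.

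**Figure D2:**
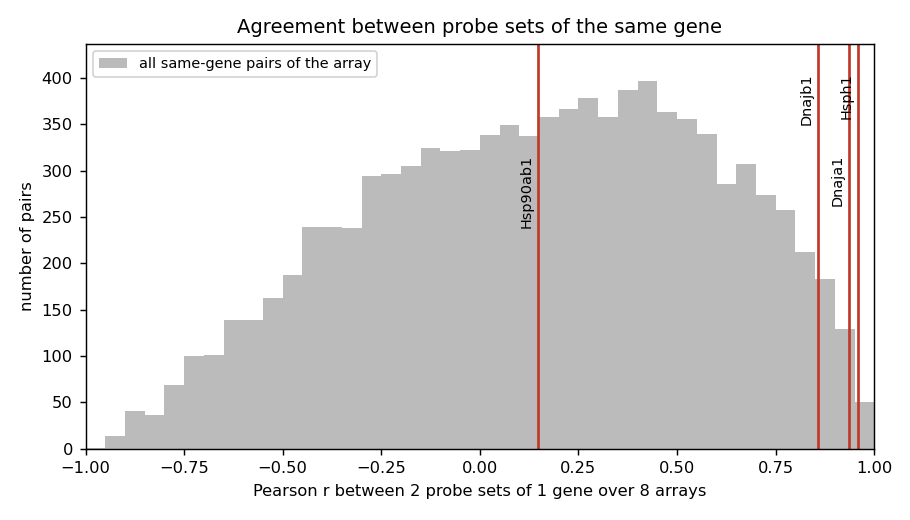
Number of pairs of probe sets with the same gene symbol (y axis) by their Pearson r over the 8 arrays (x axis). Grey bars hold all 9597 pairs of the array and red lines mark the member genes, with Hsp90ab1 at 0.15 near the middle and Dnajb1, Dnaja1 and Hsph1 between 0.86 and 0.96.

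Different chaperone genes also varied together. With each gene represented by its brightest probe set, r was over 0.5 in 12 of the 15 pairs of genes, 80.0%, with a median of 0.653 and a range from 0.258 to 0.933. Over all pairs of different genes of the array the share was 15.9%, and the median r was near 0. With each array centred on its median it was over 0.5 in 5 of the 15 pairs, and without high-fat replicates 3 and 4 in 7. All these values share the same 8 arrays. Taken as deviations from the mean of each diet, the values had an r over 0.5 in 11 of the 15 pairs.

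The HSP110 and J-protein genes were tied by 2 animals. Hsph1 and Dnajb1 had r = 0.933 and rho = 0.786 over the 8 animals (exact permutation p = 0.0042 and 0.0279, adjusted 0.0269 and 0.133). Hsph1 and Dnaja1 had r = 0.907 and rho = 0.524 (exact p = 0.0089 and 0.197, adjusted 0.0288 and 0.267), and Dnajb1 and Dnaja1 r = 0.896 and rho = 0.50 (exact p = 0.0110 and 0.216, adjusted 0.0288 and 0.274). Without high-fat replicates 3 and 4, the animals farthest from the median, r was 0.335, 0.109 and -0.141 in that order. The relation among these 3 genes therefore rests on those animals.

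The 2 animals farthest from the median on the first gene of a pair, in the order of the list, were then left out. The choice of animals depends on that order. Of the 12 pairs that had an r over 0.5, 6 still had one. Dnaja1 and Hspd1 had r = 0.83 and rho = 0.952 (exact permutation p = 0.0136 and 0.0011, adjusted 0.0288 and 0.0217), and r was 0.944 without high-fat replicates 3 and 4. Hspd1 and Hspe1, the barrel and lid genes that share a promoter region, had r = 0.809 and rho = 0.714 (exact p = 0.0122 and 0.0576, adjusted 0.0288 and 0.147), and r was 0.573 without high-fat replicate 1 and normal replicate 3. Hsp90ab1 and Hspe1 had r = 0.833 and rho = 0.690 (exact p = 0.0120 and 0.0694, adjusted 0.0288 and 0.147), with 0.663 after leaving out normal replicate 3 and high-fat replicate 4. Hsp90ab1 and Hspd1 had 0.695, but 0.377 without normal replicate 3 and high-fat replicate 4. Hsph1 and Hspd1 had 0.653, but 0.231 without high-fat replicates 3 and 4. Hspe1 and the HSP110 and J-protein genes had r = 0.258 for Dnajb1, 0.363 for Hsph1 and 0.552 for Dnaja1, each with an adjusted exact p over 0.05 (0.544, 0.422 and 0.195). Without high-fat replicates 3 and 4 these r were -0.0186, 0.289 and 0.895. Dnaja1 and Hspe1 were thus among the 6 pairs, with rho = 0.762 over the 8 animals (exact permutation p = 0.0368, adjusted 0.140). In all, 9 of the 19 pairs passed an adjusted p of 0.05 for r and 3 for rho.

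**Figure D3:**
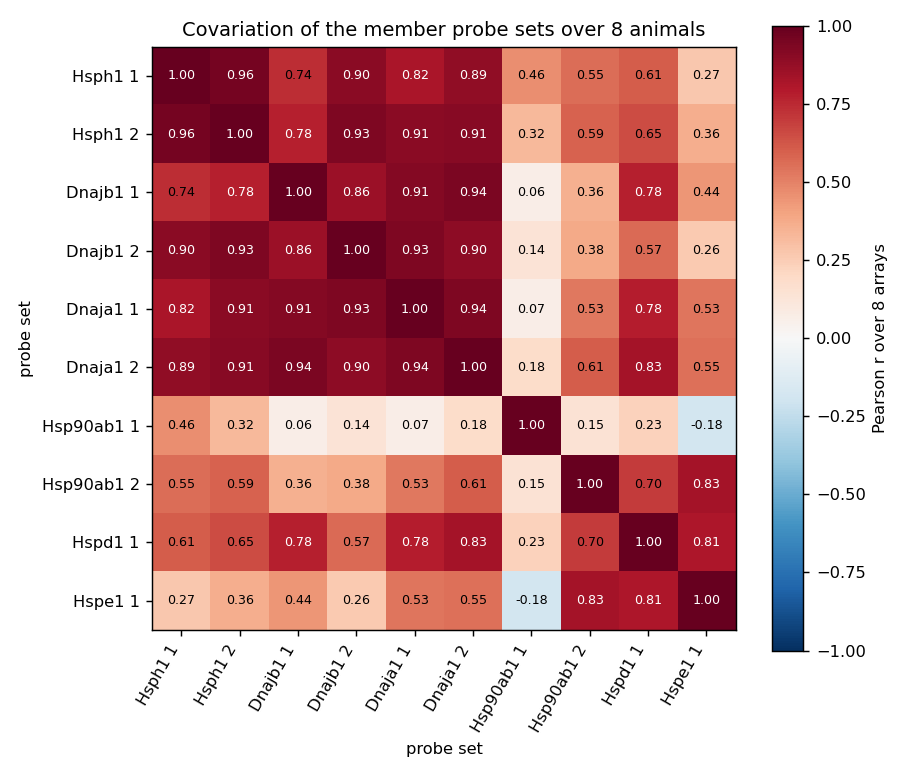
Pearson r over the 8 arrays for every pair of the 10 member probe sets, on a colour scale from -1 to 1. The probe sets of Hsph1, Dnajb1 and Dnaja1 form a block at 0.74 and above, Hspd1, Hspe1 and probe set 2 of Hsp90ab1 a block at 0.70 and above, and probe set 1 of Hsp90ab1 stands apart. The 2 blocks are not separate, as Hspd1 has 0.83 with probe set 2 of Dnaja1 and 0.78 with probe set 1 of Dnajb1.

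**Figure D4:**
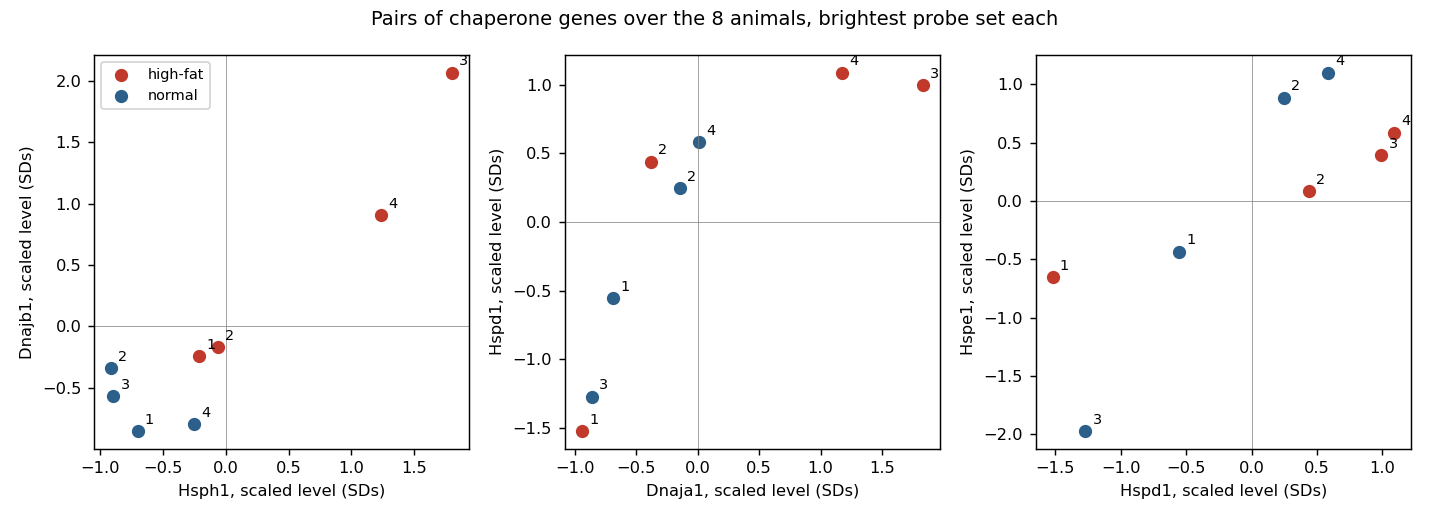
Scaled levels (mean 0 and SD 1 over the 8 arrays) of 3 pairs of genes, each by its brightest probe set, with animals marked by replicate number. High-fat replicates 3 and 4 sit apart at the upper right for Hsph1 and Dnajb1, and also lie apart from the other animals on the Dnaja1 axis, at 1.83 and 1.17 with the next animal at 0.0101.

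The probe set most like the chaperones was that of a cochaperone, by a narrow margin. The scaled levels of the 6 genes were averaged in each animal, giving -0.587, -0.0638, 1.23 and 1.07 in high-fat replicates 1 to 4, against -0.635, -0.0550, -1.23 and 0.276 in normal replicates 1 to 4. Among 20816 probe sets with 1 symbol outside the list, Ahsa1, which stimulates the ATPase of HSP90, had the highest r with this mean, 0.966 over 8 animals. Its own scaled levels were -0.845, 0.250, 1.39 and 1.24 in the high-fat animals, against -0.738, -0.571, -1.26 and 0.531 in the normal animals. High-fat replicates 3 and 4 were again on top, while high-fat replicate 1 lay with the low normal animals. Ahsa1 differed between the diets by 1.13 within-group SDs (limma adjusted p = 1). Next came probe sets of Tgfa (0.963), Nsd3 (0.961), Creb5 (0.954) and Rangap1 (0.953). Of these genes Ahsa1 had no further probe set, so its value could not be checked on another. The others did not repeat the value, with r of -0.0344 for Tgfa, -0.480 for Rangap1, from -0.493 to 0.433 over 5 further probe sets of Nsd3 and from -0.733 to 0.266 over 4 of Creb5.

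Of the other chaperone lists, HSP90 cochaperones and the TRiC chaperonin with prefoldin had the largest shares of genes correlated with the members' mean at an r over 0.5. These shares were 46.7% and 46.2%, and no such r is given with single animals left out. Of 15 HSP90 cochaperones measured, 7 had an r over 0.5 with the mean of the 6 genes, against 9.59% of all 14217 genes and 13.1% of the 5419 genes among the brightest 25%. After Ahsa1, these were Stip1, which links HSP70 to HSP90 (0.912), Chordc1 (0.853), Ptges3, the p23 cochaperone (0.665), Fkbp5, an immunophilin induced by glucocorticoids (0.592), Nudc (0.578) and Cdc37, which brings kinases to HSP90 (0.575), all named after their values were seen. In high-fat replicate 3, Ahsa1, Stip1, Chordc1 and Fkbp5 lay above their own means and Ptges3, Nudc and Cdc37 below. Of the TRiC chaperonin and prefoldin, which fold actin and tubulin, 6 of 13 measured genes had an r over 0.5. The highest was Cct3, at 0.739. The mean scaled level of the 13 TRiC and prefoldin genes was -0.363 in high-fat replicate 3, where the members' mean was highest (1.23). It was highest in normal replicate 2 (1.002, members -0.0550) and lowest in normal replicate 3 (-1.49, members -1.23). Among other J-proteins 4 of 22 did, among other HSP70 and HSP110 genes 2 of 9 (Hspa4, 0.638, and Hspa13, 0.507), among HSP70 cochaperones 1 of 10 (St13, 0.609) and among heat shock factors and their regulators 1 of 10 (Hsf1, 0.628). No small heat shock protein (0 of 8) and no other mitochondrial chaperone or protease (0 of 13) had an r over 0.5.

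Between the diets, the wider chaperone network was split between both directions. Of 100 measured genes in these lists, 51 had a higher and 49 a lower mean in the high-fat group, with a median of 0.00715 within-group SDs, against 47.5% higher and a median of -0.0374 over all 14217 genes. None passed limma (0 of 100), and 2 had an unadjusted p under 0.05, against 1.998% of all genes. HSP90 cochaperones had 9 of 15 higher, with Fkbp5 at 2.09 and Aarsd1 at -1.28 within-group SDs. Other HSP70 and HSP110 genes had 5 of 9 higher, with the heat-inducible Hspa1a at 1.26 and Hspa4l at -0.479. HSP70 cochaperones had 7 of 10 higher, with Bag2 at 1.03 and Bag4 at -0.420. Other J-proteins had 8 of 22 higher, with Dnajb4 at 1.39 and Dnajb12, which sits in the endoplasmic reticulum membrane, at -1.60.

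The remaining lists were as mixed. TRiC and prefoldin had 8 of 13 higher, with the TRiC subunit Tcp1 at 1.34 and Pfdn1 at -1.18 within-group SDs. Heat shock factors and their regulators had 6 of 10 higher, with Hsf2 at 1.11 and Hsf2bp, a binding partner of Hsf2, at -1.90. Small heat shock proteins had 4 of 8 higher, with Cryab at 0.209 and Hspb1 at -1.39. Mitochondrial chaperones and proteases had 4 of 13 higher, with the protease subunit Afg3l2 at 0.541 and the matrix protease Lonp1 at -1.32. Each of the genes named here had a limma adjusted p of 1.

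**Figure D5:**
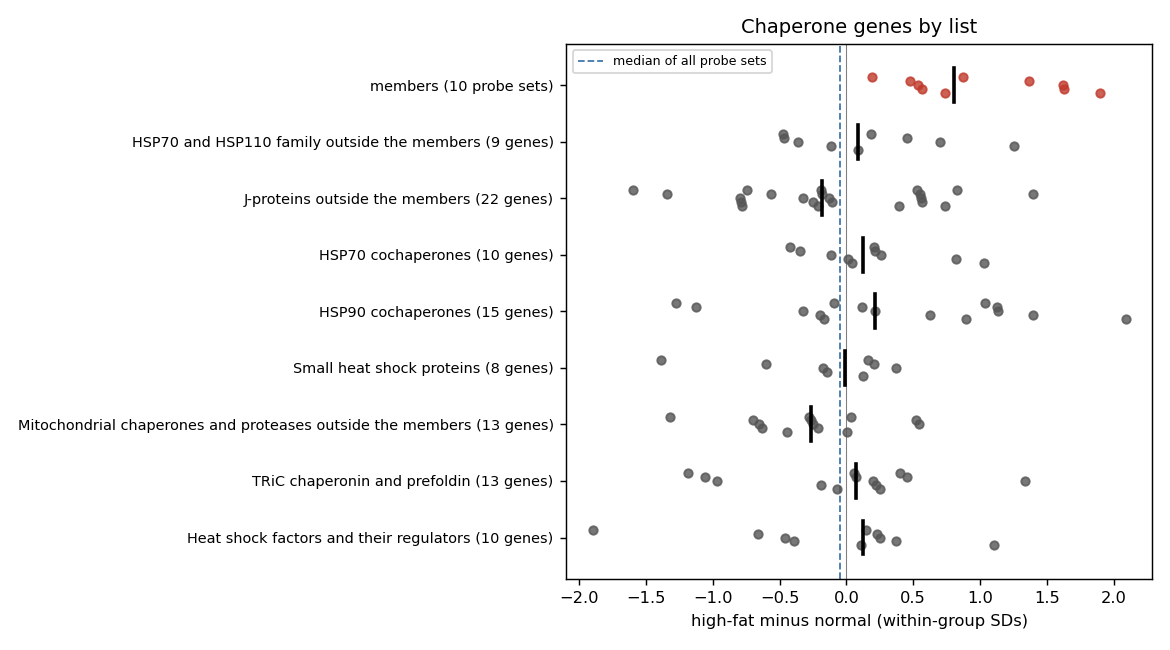
High-fat minus normal difference of each gene, in within-group SDs (x axis), for the 10 member probe sets and 8 lists of other chaperone genes by their brightest probe set (rows). Black bars are medians and the dashed line is the median of all probe sets (-0.0479). The members' median is 0.804, and 5 of the 10 members turn below 0 when arrays are centred on their medians.

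Other features of the animals moved beside the chaperones. High-fat replicate 4, high for most members, had a scaled mean of 2.10 over 11 natural killer cell markers, where high-fat replicates 1 to 3 had -0.0674, -0.213 and -0.355 and the normal animals between -0.692 and 0.132. It had 1.87 over 9 monocyte markers, against -0.425 to -0.167 in the normal animals. High-fat replicate 3 stood at -0.355 and -0.264 on those lists. The summed level of the natural killer markers ran from 79.43 to 79.50 in the high-fat group and from 79.42 to 79.44 in the normal group. Of these markers 11 of 11 were higher in the high-fat group, beside 47.5% of all genes. An r over 0.5 with the mean of the chaperones was found for 9 of 11, beside 9.59% of all genes. Monocyte markers summed to between 69.62 and 69.64 in the high-fat group and between 69.62 and 69.63 in the normal group. Of them 9 of 9 were higher in the high-fat group, but high-fat replicate 2 stood at -0.572, below each normal animal. Only 1 of the 9 had an r over 0.5 with the mean of the chaperones. The part of either list in the chaperone values was not tested.

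Neutrophil, red cell, platelet, T cell, B cell and handling markers and RNA integrity are given beside them, and their part was not tested either. Neutrophil markers stood at 0.603 in high-fat replicate 4 and 0.435 in high-fat replicate 3, the animals highest for most members, against -0.740 in normal replicate 3. These markers were highest in normal replicate 2, at 0.649, and lowest in high-fat replicate 2, at -0.786. Of 9 measured, 6 were higher in the high-fat group, beside 47.5% of all genes. An r over 0.5 with the mean of the chaperones was found for 3, beside 9.59% of all genes. These were Mmp9 (0.943), Camp (0.752) and Mmp8 (0.657), named after their values were seen. The lowest r was that of Ncf1 (-0.680), and the brightest neutrophil markers, S100a8 and S100a9, had 0.453 and 0.368. Erythroid markers were higher in the high-fat group in 9 of 11, beside 47.5% of all genes, with a median of 0.808 within-group SDs. An unadjusted limma p under 0.05 was found for 3, beside 1.998% of all genes, and 0 passed the adjusted threshold. Erythroid markers stood at 1.195 in high-fat replicate 1, which was low for most members, at 0.619 in high-fat replicate 3 and at -0.446 in high-fat replicate 4. Platelet markers stood at 0.427 in high-fat replicate 3 and -1.55 in high-fat replicate 4, against -0.346 to 0.729 in the normal animals. B cell markers stood at -1.17 and -0.402 in these 2 animals, against -0.759 to 1.03 in the normal animals. T cell markers were lowest in normal replicate 3, at -1.11, an animal also low for Hspd1, Hspe1 and TRiC (-1.49). Immediate early genes respond to the handling of blood within minutes. Of them 13 of 18 were higher in the high-fat group, beside 47.5% of all genes, and 0 passed limma. Jund stood at 0.763 and Fosl1 at -0.844 within-group SDs. On that list high-fat replicate 4 was highest, at 0.456, and high-fat replicate 3 stood at -0.0654. The 3' minus 5' level of the beta-actin control, a measure of RNA integrity, deviated from its mean by -0.0738 to 0.0556 ten-thousandths in the high-fat group and by -0.0918 to 0.0517 in the normal group (exact permutation p = 0.429), with r = 0.650 to the mean of the 6 chaperone genes, a description over 8 arrays. For Gapdh the ranges were -0.0452 to 0.0416 and -0.0990 to 0.0826 (exact p = 0.971), with r = 0.445 to the same mean.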

How the data were processed

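Whole blood RNA of 4 high-fat and 4 normal rats was measured, 1 animal per Affymetrix 3' expression array, per the labels' protocols. The table the authors deposited holds processed values that read as log2 intensities. Background correction, normalization and probe summary are not given in the sources used here. Precision is limited by the number of arrays. Control probe sets (57) were left out. Platform annotation gave 1 symbol for 20826 of the other 31042, several for 436 and none for 9780.

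All 31042 probe sets were fitted together with limma 3.58.1 in R 4.3.3 (high-fat against normal, no covariates, two-sided, Benjamini-Hochberg adjustment, threshold 0.05). The fit was tested on simulated data with shifts larger, in within-group SDs, than any member's difference. That check therefore says nothing about differences of the members' size. Correlations used exact permutation over 40320 pairings of 8 arrays, two-sided. Single probe sets were also compared over the 70 assignments of 4 against 4 animals. In lists, a gene is its probe set with the highest mean. Named genes are all members, the smallest p in each direction per list, and the 5 probe sets most like the members' mean. The members, lists and rules were chosen with earlier results of these data known. Whether same-numbered animals were paired was checked, and the numbers were not treated as pairs. Alternatives were quantile normalization, centring, a brightness filter, other variance models, array weights, the replicate block, an exact test and leaving out each animal. Protein sequences were not used here.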

Additional observations from a re-analysis of the deposited data

How the results depend on the processing

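No member passed limma in any of the 15 alternatives run. Over all probe sets, quantile normalization on top gave 32 calls in place of 0, none of them a member, and the other alternatives gave 0. The member probe sets higher in the high-fat group numbered 5 with quantile normalization, 5 with centring, and 9 to 10 when single animals were left out. Pairs of probe sets of the same gene with r over 0.5 numbered 3, 1 with quantile normalization (where 1 of 4 had no value because a probe set did not vary), 2 with centring, 2 without high-fat replicates 3 and 4, and 3 to 4 without single animals. Pairs of genes numbered 12, but 1 with quantile normalization (9 of 15 without a value), 5 with centring, 9 to 13 without single animals, and 7 without high-fat replicates 3 and 4, an alternative chosen after seeing the data.

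Differences that turned below 0, in ten-thousandths, were as follows. With centring they were -0.483 and -0.148 for Dnajb1 probe sets 1 and 2, -0.238 for Dnaja1 probe set 1, -0.581 for Hspd1 and -0.565 for Hspe1. With quantile normalization they were -0.405 and -2.82 for Dnaja1 and -2.17 for Hspe1. Array weights gave -0.0507 for Hspe1. Leaving out single animals gave -0.00117 (without high-fat replicate 3) to 0.349 for probe set 1 of Dnajb1 and -0.188 (without normal replicate 3) to 0.277 for Hspe1. No other member was reversed without a single animal. Both probe sets of Hsph1 and both of Hsp90ab1 stayed above 0 in every alternative run, but those of Hsp90ab1 ranged from 0.440 (without high-fat replicate 4) to 3.41 and from 0.586 (without normal replicate 3) to 2.87 without single animals. Probe set 2 of Dnaja1 ranged from 0.427 (without high-fat replicate 3) to 1.497 and Hspd1 from 0.0251 (without normal replicate 3) to 0.172. Without high-fat replicate 3, probe set 2 of Dnajb1 gave 0.322 and probe set 1 of Dnaja1 0.255. The replicate block gave 0 calls and 10 of 10 members higher. Deviations of same-numbered animals correlated at -0.125, 0.205, 0.368 and 0.144, and not every one was over 0.1, so the numbers were not read as pairs.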
